A study of Rattus norvegicus with 12 samples.

Results

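Resected ileum was set against sham-operated ileum, with 4 arrays of short bowel syndrome (SBS) and 3 sham arrays, 7 of the 12 arrays of the series. The arrays were chosen by their labels. SBS rats had 75% of the bowel removed, and in sham rats the bowel was cut and rejoined without removal. All were male rats of one strain, written Spraque Dawley in the labels, and the tissue was intestinal mucosa. Age, the time after surgery and the place of each sample along the ileum were not stated in the sources used here. Codes 36 to 39 (SBS) and 33 to 35 (sham) were read as codes of separate rats. RNA was measured on the Illumina RatRef-12 BeadChip, whose beads carry 1 probe sequence each. Per the labels, RNA and DNA of too low quality kept some samples out.

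After loss of much of the small bowel the remaining gut is known to adapt: villi lengthen, crypts produce more cells, and ileum takes over absorption from the lost segments. Ileal mucosa holds absorptive enterocytes, which burn and export fat, beside secretory cells, and it holds lymphoid follicles (Peyer's patches) whose B cells are held in place by follicular dendritic and other stromal cells. In a piece of mucosa, fewer cells of a type and less RNA per cell cannot be told apart.

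Values are log2 signals after background correction and quantile normalization, and a gene stands for its brightest probe. The test was limma's moderated test, with Benjamini-Hochberg adjustment across the 9137 probes kept, and a gene rose or fell where adjusted p was under 0.05. Some markers of region, chosen after their values were seen, fitted the ileal label. Other genes, higher in SBS jejunum, varied between the ileal arrays (Alpi, Reg1a, Slc40a1 and S100g, given further below). Fabp6, the bile acid carrier of ileal enterocytes, lay between 14.24 and 14.45 on all 7 arrays, near the top of the scale. Gata4, a factor of proximal gut, and Lct, the lactase gene, were detected on none of the 7, and Gip, a hormone of proximal gut, on 1 sham array. The enterocyte fatty acid carrier Fabp2 averaged 13.98 ± 0.05 on SBS arrays (SD, n = 4) and 13.93 ± 0.13 on sham arrays (SD, n = 3), and Zg16, a goblet cell product, lay between 13.57 and 13.90.

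Between 7514 and 8415 of 22517 probes were detected on the SBS arrays, and 8119 to 8695 on the sham arrays. The first principal component held 48.5% of the variance over the 7 arrays and separated the groups, with scores of -33.18, 1.36, -13.26 and -16.27 on SBS 1 to 4 and of 10.54, 21.16 and 29.65 on sham 1 to 3. SBS 1 thus stood farthest from sham and SBS 2 nearest to it. Of 6704 measured genes, 197 changed (2.94%), with 46 higher (0.686%) and 151 lower (2.25%) in resected ileum, and 110 of the 197 changed by over 2-fold. Counted by probe, with unnamed probes included, 268 passed (2.93%). Without sham 2 this was 23 and without sham 3 it was 25, against 125 without SBS 1 and 162 without SBS 4. If the codes do not stand for separate rats, p-values measure only the spread between these samples. Every SBS array lay above every sham array for 767 genes (11.4%), and below every sham array for 568 genes (8.47%). The median log2 difference over all genes was 0.0352.

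**Figure D1:**
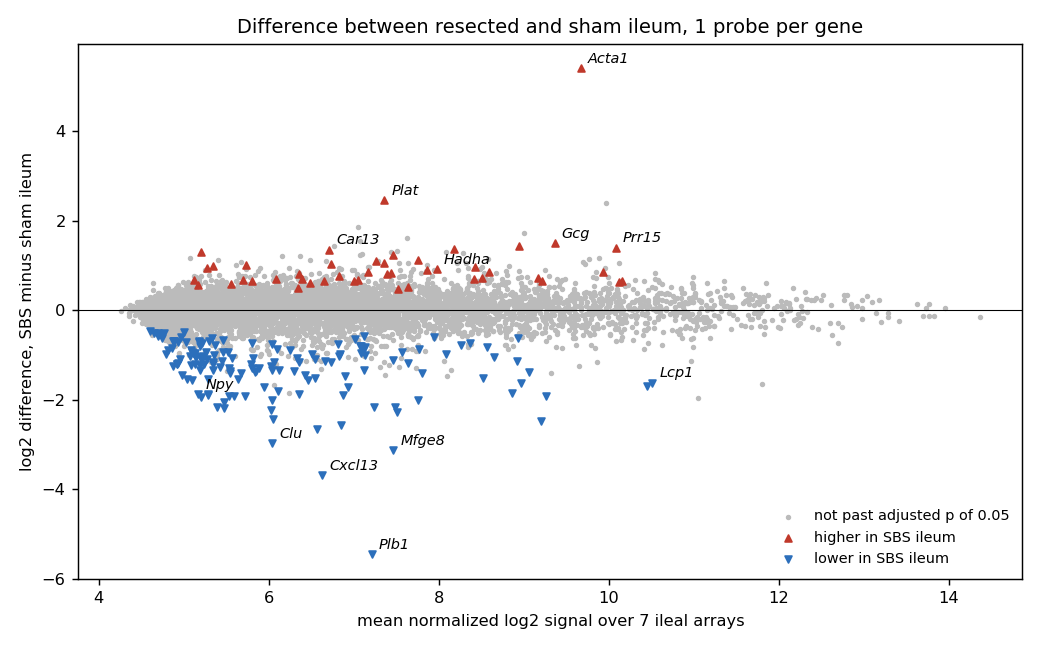
Log2 difference between SBS and sham ileum (vertical axis) against the mean log2 signal over 7 ileal arrays (horizontal axis), 1 point per gene. Upward triangles are the 46 genes called higher in SBS ileum and downward triangles the 151 called lower. Most genes that fell lie below a signal of 8, and Plb1, at a difference of -5.46, lies lowest.

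Genes of lymphoid follicles fell in resected ileum. Over 6 lists of immune genes, which share some members, 141 genes were measured, 32 fell and 0 rose, where 2.25% of all genes fell. A gene kept by the filter only through sham arrays had to be lower, so the share that fell is a description and no support: 7 of the 32 were detected on no SBS array and 10 on all 4. With no filter on dim probes, but the same measured genes counted, 6 B cell, 6 follicle, 5 chemokine, 1 T cell and 1 macrophage genes fell. These lists overlap. Genes that missed the filter were not counted there either, so this setting cannot show what the filter did to the share. The fall covered B cell surface and signalling genes, some genes of the stroma that organises follicles, and proteins found in leukocytes in general. T cell receptor genes did not pass.

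Of 30 B cell and plasma cell genes on the array 18 were measured, and 10 of these fell (55.6%). Ms4a1, which encodes the B cell surface protein CD20, had signals of 4.31, 5.03, 4.46 and 4.32 on the SBS arrays, against 5.93, 7.27 and 6.95 on the sham arrays. It was detected on 1 SBS array and on all 3 sham arrays, and the groups did not overlap. The log2 difference of Ms4a1 was -2.19 ± 0.28 (SE; limma adjusted p = 0.00369). Cd79b, a signalling chain of the B cell receptor, had 4.78, 5.43, 5.17 and 4.86 on SBS arrays and 6.36, 7.74 and 7.81 on sham arrays (difference -2.24, adjusted p = 0.00458). Cd72, a B cell coreceptor, was not detected on any SBS array and was at least 3.02-fold lower there (adjusted p = 0.00369). Downstream of the receptor, the kinases Syk and Prkcb and the signalling protein Swap70 also fell (differences -1.13, -2.56 and -2.17, adjusted p = 0.0101, 0.0128 and 0.00826).

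Cd83, a protein of activated B cells and dendritic cells, was well above background in both groups, with 7.06, 9.05, 8.33 and 8.09 on SBS arrays against 9.84 to 11.01 on the 3 sham arrays. SBS 2 came closest to the sham level and sham 1 closest to the SBS level, an order that Ms4a1 and Cd79b share. Cd83 fell by 2.48 ± 0.45 (SE; adjusted p = 0.0136). Mzb1, a chaperone of antibody-making cells, fell by 1.20 (adjusted p = 0.0242), and lymphotoxin beta, Ltb, was at least 1.80-fold lower (adjusted p = 0.0275). Btk, Bcl6 and Cd37 differed by -0.95, -0.80 and -1.15 without passing (adjusted p = 0.0515, 0.0544 and 0.0548).

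The median difference of the 18 genes was -1.18 (0.0352 over all genes), and -0.66 in the deposited series matrix, which has no background correction. The median describes the kept genes and does not test them. The other 12 genes missed the filter; Bank1, Cd180 and Cd40 among them were each detected on 2 sham arrays and on no SBS array, and Pax5, Cd22 and Blnk on none of the 7. Without sham 2 or without sham 3, 3 genes of the list passed in each fit, and without sham 1 it was 12.

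Some genes of the follicle stroma list fell as well, 9 of 20 measured (45%, where 2.25% of all genes fell). The list has 29 genes on the array, and the rest missed the filter. Of these, Fdcsp, Coch and Fcer2 were detected on none of the 7 arrays. Ccl21 and Cilp were each detected on 2 sham arrays and no SBS array, Tnfsf11 on 1 sham array and no SBS array. Tnfsf13b went the other way, on 2 SBS arrays and no sham array. Clu, clusterin, a product of follicular dendritic cells among others, had 4.40, 5.11, 5.05 and 4.49 on SBS arrays against 6.96, 8.24 and 8.04 on sham arrays, and fell by 2.98 ± 0.31 (SE; adjusted p = 0.00143). Cxcl13, a chemokine to which B cells migrate in follicles, had 4.27, 6.31, 5.22 and 4.36 on SBS arrays against 7.60, 9.30 and 9.30 on sham arrays. It was detected on 2 SBS arrays, no SBS value reached a sham value, and it fell by 3.69 (adjusted p = 0.00654). Ccl19, which guides T cells and dendritic cells, was detected on no SBS array and had 5.14, 7.08 and 6.75 on sham arrays, at least 2.96-fold lower in resected ileum (adjusted p = 0.0112). Madcam1, the address molecule on vessels through which lymphocytes enter gut tissue, fell by 1.02 (adjusted p = 0.0171). Mfge8 and Enpp2, products of follicular dendritic and other stromal cells, fell, with differences of -3.13 and -2.66 (adjusted p = 0.0119 and 0.0185), and complement receptor Cr2, which B cells and follicular dendritic cells carry, fell by 1.22 (adjusted p = 0.00826). Icam1 fell by 0.89 (adjusted p = 0.026), whereas its relative Vcam1 differed by -0.89 without passing (adjusted p = 0.0955), and its groups overlapped.

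Not all stromal members of the list moved. Lum, a matrix proteoglycan, had 4.57, 6.88, 5.97 and 4.40 on SBS arrays against 5.76, 5.20 and 5.87 on sham arrays, so that SBS 2 and SBS 3 lay above every sham array and SBS 1 and SBS 4 below. Ccl20, an epithelial chemokine over follicles, had 8.75, 7.35, 8.30 and 7.83 on SBS arrays and 7.91, 9.85 and 8.68 on sham arrays. Its receptor Ccr6, found on B cells, fell by 2.01 (adjusted p = 0.00911). The median of the 20 genes was -0.89 and -0.51 in the series matrix. Without sham 2, and again without sham 3, 1 of the 20 passed.

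**Figure D2:**
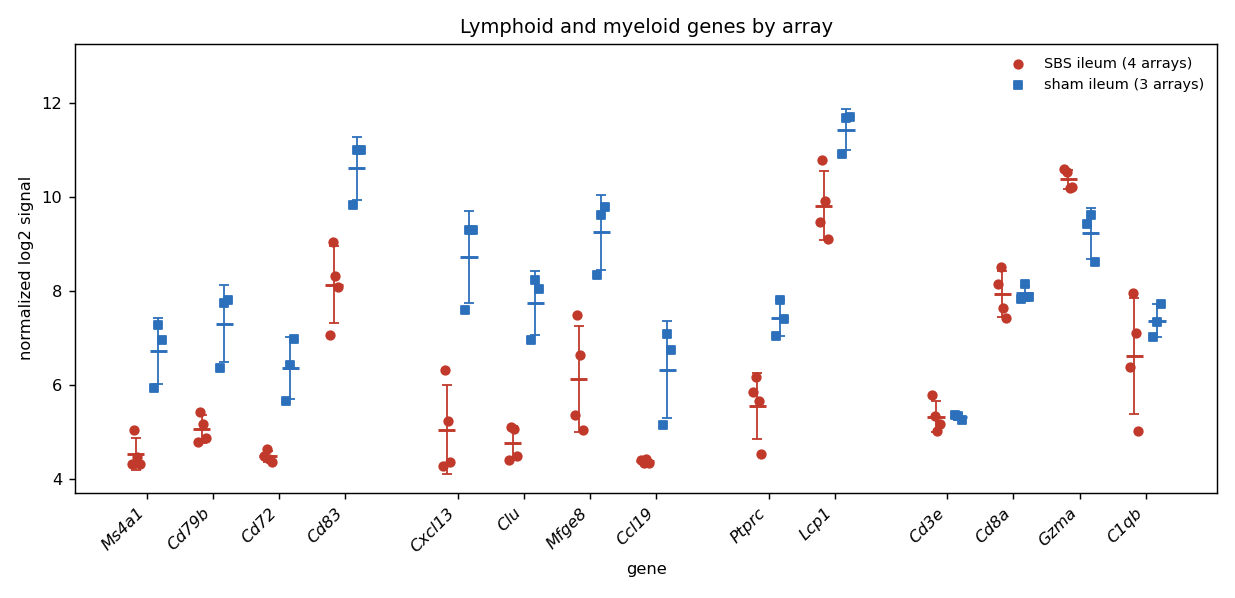
Normalized log2 signal (vertical axis) of 14 immune genes on each array, SBS ileum as circles left of sham ileum as squares; lines are group means and bars 1 SD. The groups do not overlap for the B cell, follicle and general leukocyte genes (Ms4a1 to Lcp1), nor for Gzma, which lies the other way, while Cd3e, Cd8a and C1qb overlap.

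Among 44 measured chemokine, interleukin and receptor genes 8 fell (18.2%, where 2.25% of all genes fell). Of the 8, 4 (Cxcl13, Ccl19, Ltb and Ccr6) are named above. Il22ra2, the soluble decoy receptor that binds interleukin 22, had 4.34, 4.55, 4.75 and 4.25 on SBS arrays against 6.14, 6.14 and 6.82 on sham arrays. It was detected on no SBS array and was at least 3.05-fold lower (adjusted p = 0.00369). Il16, Cxcr4 and Il6r also fell (adjusted p = 0.00734, 0.0184 and 0.0482), Cxcr4 by at least 1.80-fold and Il16 by 1.10 on the log2 scale. Il6r overlapped between groups. The median of the 44 was -0.11.

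Some general leukocyte genes fell, and most T cell genes did not pass. Ptprc, which encodes the leukocyte antigen CD45, had 5.84, 6.16, 5.66 and 4.53 on SBS arrays against 7.05, 7.81 and 7.41 on sham arrays (difference -1.87, adjusted p = 0.0106). The actin regulator Coro1a and the adaptor Sh2d1a, which T cells use, fell too (adjusted p = 0.0242 for both), Sh2d1a by at least 1.51-fold. The T cell receptor chain gene Cd3e averaged 5.32 ± 0.33 (SD, n = 4) in SBS and 5.32 ± 0.06 (SD, n = 3) in sham ileum, and Cd8a 7.94 ± 0.50 and 7.95 ± 0.17. Cd3d was lower on SBS arrays without passing (difference -0.51, adjusted p = 0.539).

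Some genes of cytotoxic cells were higher on every SBS array, and none of them passed. Granzyme A, Gzma, had 10.59, 10.53, 10.20 and 10.22 on SBS arrays against 9.43, 9.63 and 8.62 on sham arrays; the groups did not overlap, but its difference of 1.16 did not pass (adjusted p = 0.126). Gzmb, Faslg and Cd7 were also apart between groups, with differences of 1.29, 0.59 and 0.73 (adjusted p = 0.222, 0.0872 and 0.33). Over the 30 measured T cell and cytotoxic genes 3 fell (10%, where 2.25% of all genes fell) and 0 rose. In each direction 4 were apart (13.3% each, against 11.4% of all genes higher and 8.47% lower). The median was -0.03, a sign that turned with median scaling (0.07).

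Of 28 macrophage and dendritic cell genes 5 fell (17.9%, where 2.25% of all genes fell). They were Ncf1, a subunit of the phagocyte oxidase (difference -1.73), the leukocyte genes Lcp1, Arhgdib and Laptm5 (-1.62, -1.69 and -1.19), and Cd53 (-1.36), with adjusted p = 0.00887, 0.0299, 0.0303, 0.0424 and 0.026. These are shared by B cells and other leukocytes. C1qb, a complement gene of tissue macrophages, overlapped, with 6.37, 7.95, 7.11 and 5.02 on SBS arrays against 7.03, 7.34 and 7.73 on sham arrays. The defining macrophage genes Adgre1 and Itgam were detected on none of the 7 arrays. Of other genes that missed the filter, Tyrobp was detected on 2 SBS arrays and no sham array. Cd163, Cx3cr1 and Clec4a3 were each detected on 1 SBS array and no sham array, and Lst1 on 1 sham array and no SBS array. With the ileal arrays alone, or without SBS 3 or SBS 4, 1 of the 28 passed, and without sham 2 or without sham 3 it was 0. RT1-DOb, part of the class II chaperone of B cells, was at least 1.78-fold lower (adjusted p = 0.00369), while Cd74, the class II invariant chain that other cells also make, differed by -0.67 (adjusted p = 0.0849) with 9.72 to 10.32 on SBS arrays and 10.55 to 10.80 on sham arrays.

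The genes outside the lists that fell most are given next. Plek, a substrate of protein kinase C in leukocytes and platelets, had 6.18, 6.65, 6.69 and 5.70 on SBS arrays against 7.90, 8.70 and 8.84 on sham arrays (difference -2.17, adjusted p = 0.00458). Rhoh, Lyl1, Satb1 and Dok3, all known from blood cells, fell (adjusted p = 0.0141, 0.0185, 0.00666 and 0.00458), with differences of -2.0, -1.81 and -1.91 for Rhoh, Lyl1 and Satb1, and Dok3 was at least 2.33-fold lower. St3gal6, a sialyltransferase, was at least 3.63-fold lower (adjusted p = 0.00403), and Chst1, a sulfotransferase of sugar chains, fell by 1.91 (adjusted p = 0.00654). Mybl1, a transcription factor of the Myb family, fell by 2.05 (adjusted p = 0.00369), and Ctse, the aspartic protease cathepsin E, fell by 2.27 (adjusted p = 0.00534). Napsa, another aspartic protease, fell by 1.63 (adjusted p = 0.00787) at a high level, 7.87 to 8.87 on SBS arrays against 9.67 to 10.07 on sham arrays. Selenow, a small selenoprotein, and Sirpa, a myeloid membrane protein, fell, with differences of -1.93 and -1.89 (adjusted p = 0.0298 and 0.0288); Tbc1d17, Basp1 and Dnai7 also fell, with differences of -1.93, -1.73 and -1.56 (adjusted p = 0.00776, 0.0126 and 0.00453).

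Npy, the neuropeptide Y gene, was detected on no SBS array (4.27 to 4.47), against 5.78, 6.23 and 6.72 on sham arrays, at least 2.79-fold lower (adjusted p = 0.000814). It was the 1 called gene among 6 measured genes of enteric nerves (16.7%, where 2.94% of all genes changed). Vip, Uchl1 and Tubb3 were detected on none of the 7 arrays. Icam2, an adhesion gene of vessel lining and leukocytes, fell by 1.40 (adjusted p = 0.00458). It was the 1 called gene of 14 from vessels (7.14%, where 2.94% of all genes changed). Map4k1, a kinase of blood cells, and Atp6v1g3, a proton pump subunit, fell, with differences of -1.48 and -1.54 (adjusted p = 0.0151 and 0.00929).

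Genes of fat oxidation and of the mitochondrion lay higher in resected ileum, by small amounts that few single genes carried past the test. Over 7 lists of mitochondrial functions, 205 genes were measured, 183 had positive differences, and 68 (33.2%) were higher on every SBS array than on every sham array, against 11.4% of all genes. Only Hadha and Cpt2 passed, where 0.686% of all genes rose. The median difference was 0.25, against 0.0352 over all genes.

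In fat oxidation, carnitine carries long-chain fatty acids into mitochondria, where they are shortened in repeated rounds. Cpt2, which releases the fatty acid from carnitine inside, had 9.21, 8.61, 8.83 and 9.17 on SBS arrays against 8.38, 8.08 and 7.82 on sham arrays, a rise of 0.86 ± 0.20 (SE; adjusted p = 0.0457). Hadha, the alpha subunit of the trifunctional protein that carries out later steps of each round, had 8.59, 8.14, 8.51 and 8.21 on SBS arrays against 7.39, 7.58 and 7.40 on sham arrays. The lowest SBS value of Hadha stood above the highest sham value, and the gene rose by 0.91 ± 0.17 (SE; adjusted p = 0.0142). Its partner subunit Hadhb was apart in the same way, with 12.02, 11.37, 11.47 and 11.67 on SBS arrays and 11.06, 10.90 and 11.02 on sham arrays, but did not pass (difference 0.64, adjusted p = 0.109).

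Acadvl, which starts the round on very long chains, differed by 0.82 (adjusted p = 0.0524), and Eci1 and Decr1, which handle unsaturated chains, by 1.29 and 1.15 (adjusted p = 0.0846 and 0.116). Etfdh, which passes the electrons on to the respiratory chain, differed by 0.80 (adjusted p = 0.0853), the entry enzyme Cpt1a by 0.43 (adjusted p = 0.128), and the peroxisomal enzymes Decr2 and Hsd17b4 by 0.60 and 0.74 (adjusted p = 0.0886 and 0.104). All of these were apart between groups. Among the 32 measured genes of the list 30 differences were positive with a median of 0.47. Of the 32, 2 rose (6.25%, against 0.686% of all genes), and 16 (50%) were apart and higher. An exception was Acaa1a, a peroxisomal thiolase, which lay lower on every SBS array (difference -0.63, adjusted p = 0.188). Pecr, a peroxisomal reductase that no list held, rose by 1.24 ± 0.16 (SE), with 7.82 to 8.21 on SBS arrays against 6.52 to 6.90 on sham arrays (adjusted p = 0.00369). Without sham 2, and without sham 3, 0 of the 32 passed.

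**Figure D3:**
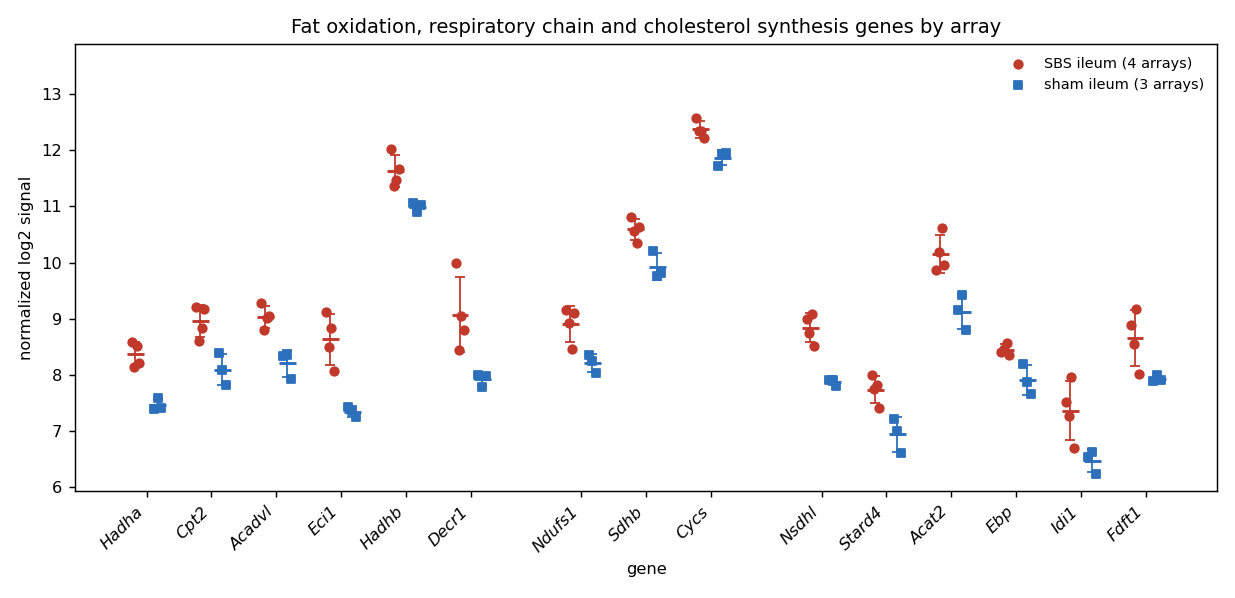
Normalized log2 signal (vertical axis) of fat oxidation, respiratory chain and cholesterol synthesis genes on each array, SBS ileum as circles left of sham ileum as squares; lines are group means and bars 1 SD. For each of the 15 genes every SBS array lies above every sham array, with Hadha, Cpt2, Nsdhl and Stard4 past the test. The 15 are a selection: in the full lists 16 of 32 fat oxidation, 13 of 27 complex I and 10 of 18 cholesterol synthesis genes were apart and higher.

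Respiratory chain genes lay higher by less, and none passed. Ndufs1, the largest subunit of complex I, had 9.16, 8.92, 8.46 and 9.10 on SBS arrays against 8.35, 8.25 and 8.04 on sham arrays (difference 0.70, adjusted p = 0.0644). Sdhb of complex II and cytochrome c, Cycs, differed by 0.66 and 0.50 (adjusted p = 0.0984 and 0.072), both without overlap. Of 27 complex I genes 13 (48.1%) were apart and higher, with a median of 0.33, and of 19 genes of complexes II to IV 8 (42.1%), with a median of 0.27. All 11 ATP synthase genes had positive differences, with a median of 0.29, and 3 were apart. The 54 genes of mitochondrial ribosomes had 51 positive differences but a median of 0.18, and 0.01 with median scaling over all probes, a setting that moved the median of all genes to -0.09.

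Cholesterol synthesis genes lay higher together. The pathway builds sterols from acetyl units, and its genes are known to be switched on as a set when cells run short of sterol. Nsdhl, a late step on the sterol ring, had 9.0, 8.75, 9.08 and 8.51 on SBS arrays against 7.91, 7.90 and 7.80 on sham arrays and rose by 0.96 ± 0.17 (SE; adjusted p = 0.0116). Stard4, a carrier that moves cholesterol between membranes, rose by 0.80 (adjusted p = 0.0362), with 7.40 to 7.99 on SBS arrays and 6.6 to 7.22 on sham arrays. Of 18 measured genes 17 differences were positive, with a median of 0.54. Of the 18, 10 (55.6%) were apart and higher, against 11.4% of all genes.

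Early steps showed the same direction: Acat2, which joins acetyl units, had 9.87, 10.18, 10.62 and 9.95 on SBS arrays against 9.15, 9.43 and 8.80 on sham arrays (difference 1.03, adjusted p = 0.0542). Idi1 and Fdft1, from the isoprene and squalene steps, differed by 0.89 and 0.72 (adjusted p = 0.0758 and 0.131), and Ebp, Tm7sf2, Hsd17b7 and Dhcr7, from the steps after ring closure, by 0.55, 0.61, 0.54 and 0.36 (adjusted p = 0.0638, 0.174, 0.149 and 0.142). SBS 3 was highest and SBS 4 lowest of the SBS arrays for Idi1 and Fdft1. With the median over all probes set equal, and without sham 2 or sham 3, 0 of the 18 passed. Of sterol export and storage genes, Apoe and Apoc1 fell, Apoe by 2.44 (adjusted p = 0.00729) and Apoc1 by at least 1.08-fold (adjusted p = 0.0335), and the median of 13 genes was 0.01. Apoe is also a member of the follicle stroma list and is counted among the genes that fell there. Scd, the fatty acid desaturase, fell by 0.94 (adjusted p = 0.0216).

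Promoters of 3 cholesterol synthesis genes are shown because their list moved together. They are the first 3 by test statistic with a RefSeq promoter in the table used, which held 14 of the 18 genes, and each is the 250 bases before the annotated start (build GRCr8), read 5′ to 3′ on the gene's strand. Capitals mark CCAAT or its reverse complement ATTGG, the letters known to bind the factor NF-Y. The windows are chrX:155817110-155817359 (plus strand) for Nsdhl, chr1:50100590-50100839 (plus strand) for Acat2 and chrX:16971212-16971461 (plus strand) for Ebp.
Nsdhl: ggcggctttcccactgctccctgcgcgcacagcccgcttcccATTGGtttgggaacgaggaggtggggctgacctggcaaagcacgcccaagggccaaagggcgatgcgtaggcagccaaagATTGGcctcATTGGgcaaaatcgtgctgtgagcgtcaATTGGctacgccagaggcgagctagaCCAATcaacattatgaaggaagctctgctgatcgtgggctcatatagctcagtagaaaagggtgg
Acat2: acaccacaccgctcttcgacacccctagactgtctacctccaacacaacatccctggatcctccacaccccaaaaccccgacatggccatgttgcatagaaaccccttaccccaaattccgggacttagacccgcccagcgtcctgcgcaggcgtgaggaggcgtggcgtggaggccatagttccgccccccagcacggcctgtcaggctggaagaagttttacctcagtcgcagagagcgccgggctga
Ebp: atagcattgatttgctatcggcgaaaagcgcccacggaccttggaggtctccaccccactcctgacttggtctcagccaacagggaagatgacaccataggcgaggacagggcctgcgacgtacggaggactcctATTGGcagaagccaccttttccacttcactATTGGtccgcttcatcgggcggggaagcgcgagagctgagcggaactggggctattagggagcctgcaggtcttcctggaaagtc
CCAAT, on either strand, stood 5 times before Nsdhl, 2 times before Ebp and 0 times before Acat2. It occurred in 10 of the 14 cholesterol synthesis promoters (71.4%), in 9 of 26 promoters of fat oxidation genes (34.6%) and in 34% of all 33469 promoters. The sterol response element letters TCACNCCAC, on either strand, were in 0 of the 14 windows and in 0.974% of all promoters. These are matches of letters and not sites shown to be bound.

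Few absorptive genes passed, although fat uptake and sugar transporter lists had positive medians. Plb1, the brush border phospholipase B that digests dietary lipids, fell, with 4.32, 4.32, 5.09 and 5.75 on SBS arrays against 10.62, 10.21 and 10.15 on sham arrays (adjusted p = 4.53e-06). It was detected on 2 SBS arrays, so the size rests on the background correction: the log2 difference was -5.46 here and -4.34 in the series matrix. None of 9 brush border peptidases, 12 sugar and monocarboxylate transporters, 8 bile acid genes, 13 vitamin uptake genes, 16 iron genes or 27 fat uptake genes passed. Over all genes 2.94% changed, so 0 in lists this short is near the share of all genes. Fat uptake and chylomicron genes had 24 positive differences of 27 and a median of 0.36. Of these genes 7.41% were apart and higher, below the 11.4% of all genes. Another 7.41% were apart and lower, near the 8.47% of all genes. Sugar and monocarboxylate transporters had 9 positive differences of 12, a median of 0.47 and 33.3% apart and higher, against 11.4% of all genes. Naaladl1 and Mep1a, peptidases of the brush border, were lower on every SBS array without passing (differences -0.74 and -0.37, adjusted p = 0.246 and 0.592). In bile acid handling, the uptake transporter Slc10a2 differed by 0.26 and the export subunit Slc51b by 0.36 (adjusted p = 0.524 and 0.509), and the bile acid receptor Nr1h4 by -0.38 (adjusted p = 0.166).

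Slc5a8 and Slc5a12, transporters of short-chain acids, averaged higher on SBS arrays without passing. Their list, of sugar and monocarboxylate transporters, also held 3 negative differences among 12 genes. Slc5a8, which takes up butyrate and lactate with sodium, had 7.32, 7.96, 7.08 and 8.0 on SBS arrays against 7.00, 6.07 and 6.04 on sham arrays (difference 1.22, adjusted p = 0.279). Its relative Slc5a12 differed by 0.83 (adjusted p = 0.427), and by 0.16 on a second probe. Rbp2 and Retsat, of vitamin A uptake and conversion, differed by 1.15 and 1.27 (adjusted p = 0.116 and 0.114), the water channel Aqp11 by 0.69 (adjusted p = 0.12), and Mttp, which loads fat onto chylomicrons, by 0.56 (adjusted p = 0.241). Lap3, a cytosolic aminopeptidase, rose by 1.42 (adjusted p = 0.0417), and Slc7a6, an amino acid exchanger found in many cell types, fell by 1.07 (adjusted p = 0.0288). Over 155 solute carriers 2 fell (1.29%, below the 2.25% of all genes that fell) and 0 rose. The other that fell was Slc15a3, a lysosomal peptide transporter of immune cells (at least 1.5-fold lower, adjusted p = 0.0336).

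The carbonic anhydrases, which turn carbon dioxide into bicarbonate and acid, were the family with the highest median among those with 5 or more measured genes, 0.98 over 6. Of the 6, 3 (50%) were apart and higher, against 11.4% of all genes. Another 1 (16.7%) went the other way, apart and lower, against 8.47% of all genes. Car13 had 7.35, 7.21, 7.14 and 7.44 on SBS arrays against 6.42, 5.77 and 5.61 on sham arrays and rose by 1.35 (adjusted p = 0.00929); a second probe differed by 0.85 (adjusted p = 0.0648). Car4, the membrane-bound enzyme, had 11.29, 10.03, 11.38 and 11.27 on SBS arrays against 9.46, 8.55 and 7.79 on sham arrays. The groups of Car4 were apart and its difference was the widest of the family at 2.39, but it did not pass (adjusted p = 0.0872). Car1 was detected on all SBS arrays and on no sham array, at least 2.09-fold higher (adjusted p = 0.0299), although its difference in the series matrix was 0.73. Car1 is also a red cell gene. Of the 10 measured red cell genes it alone passed (10%, where 2.94% of all genes changed).

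Among hormone genes Gcg, which encodes proglucagon of L cells, rose 2.80-fold, with 10.22, 9.75, 10.09 and 9.93 on SBS arrays against 8.65, 8.38 and 8.51 on sham arrays (adjusted p = 0.00154). Secretin, Sct, was apart with a difference of 0.78 (adjusted p = 0.133), and Cck, cholecystokinin, overlapped with 5.54 to 7.21 on SBS arrays and 5.14 to 5.55 on sham arrays. Gcg was the 1 called gene of 16 measured enteroendocrine genes (6.25%, where 2.94% of all genes changed).

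Of 12 measured genes of the tuft cell list 4 fell (33.3%), where 2.25% of all genes fell. The list had 10 negative differences and a median of -0.46. As for the immune lists, a gene kept only through sham arrays had to be lower, so the share is a description. Pou2f3, the transcription factor that tuft cells need, had 4.58, 4.71, 4.45 and 4.52 on SBS arrays against 5.18, 5.48 and 5.15 on sham arrays, and fell by 0.70 (adjusted p = 0.0106). It was detected on 1 SBS array. Plcg2 and Vav1, which B cells and other leukocytes also express, fell, with differences of -1.40 and -0.76 (adjusted p = 0.0124 and 0.0473), and the kinase Bmx fell by 0.50 (adjusted p = 0.0345). Dclk1 and Hpgds, both marker genes of tuft cells, were lower on every SBS array without passing (differences -0.57 and -0.74, adjusted p = 0.0818 and 0.0645). The leukocyte lists fell on the same arrays, and their part in the tuft cell result was not tested. In the series matrix the median was -0.23 and 2 passed, and 0 passed without sham 2 or without sham 3.

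Goblet, Paneth and crypt cell lists had 0 called genes among 21, 16 and 15 measured. In lists this short, 0 is near the 2.94% called over all genes. Agr2, a goblet cell chaperone, differed by 0.22 (adjusted p = 0.7). Spink4, a goblet cell protease inhibitor, had 11.44, 11.58, 10.99 and 11.19 on SBS arrays against 10.08, 11.29 and 10.36 on sham arrays, so that sham 2 alone lay within the SBS range.

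Replication, mitosis and ribosomal protein genes lay lower on some SBS arrays, and none passed. Of 33 DNA replication genes 28 differences were negative with a median of -0.38. The median over these genes, relative to their sham means, was -0.95, -0.01, -0.43 and -0.03 on SBS 1 to 4, against -0.21, 0.07 and 0.19 on sham 1 to 3. SBS 2 and SBS 4 thus lay within the sham range, and SBS 1 and SBS 3 below it. Mitosis genes (38 measured, median -0.24) and cytosolic ribosomal protein genes (59 measured, median -0.35) were lowest on the same 2 arrays, at -0.79 and -0.33 for mitosis and -0.74 and -0.52 for ribosomal proteins. Mcm3 and Mcm6, of the replicative helicase, differed by -1.10 and -0.91 (adjusted p = 0.056 and 0.252), and Pcna, the polymerase clamp, had 9.45, 10.82, 10.06 and 10.63 on SBS arrays against 10.26, 10.85 and 10.95 on sham arrays. Without SBS 1 the medians were -0.19 for replication and -0.01 for mitosis. Ribosomal genes were not uniform: Rpl39 was lower on every SBS array (difference -0.77, adjusted p = 0.108) and Rps29 higher (difference 0.53, adjusted p = 0.103).

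**Figure D4:**
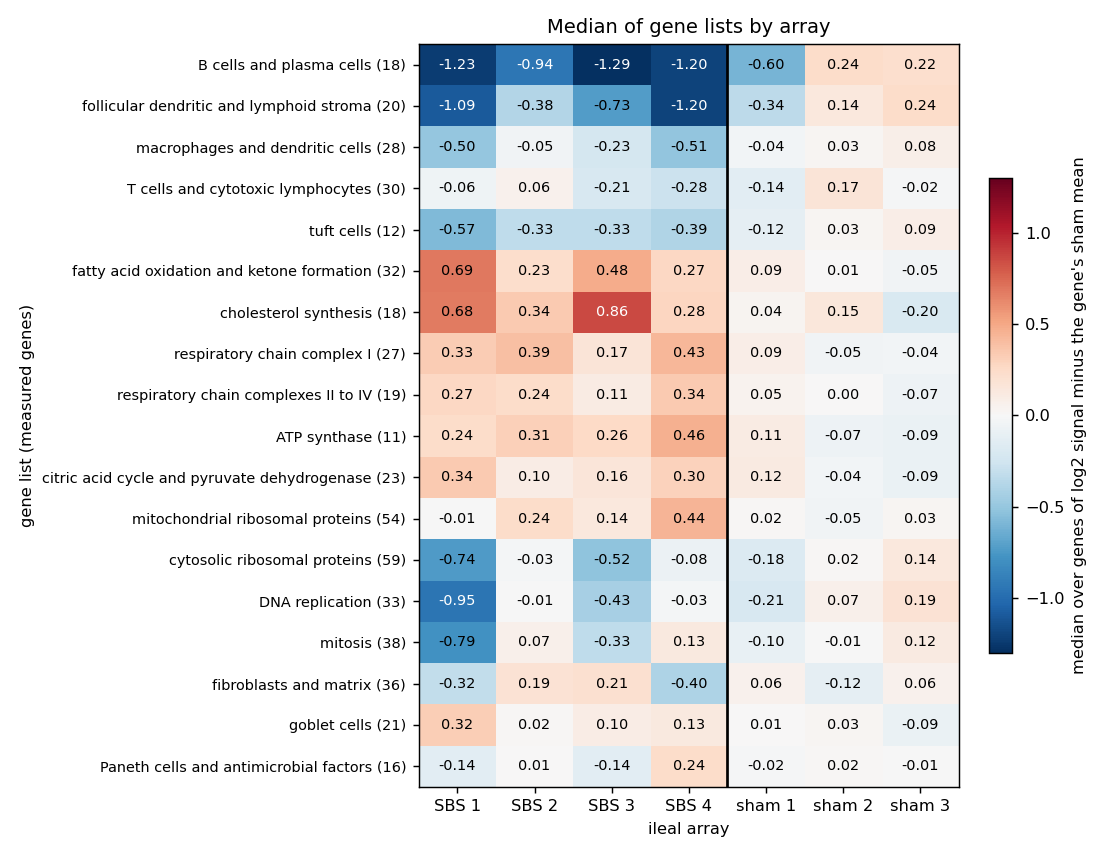
Median over the measured genes of each list of the log2 signal minus that gene's sham mean, by array (columns, SBS 1 to 4 then sham 1 to 3) and list (rows, with the number of genes). B cell medians run from -1.29 to -0.94 on SBS arrays and reach -0.60 on sham 1, fat oxidation medians from 0.23 to 0.69 on SBS arrays, and replication and ribosomal medians are low on SBS 1 and SBS 3 only.

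SBS arrays also differed from each other in connective tissue genes. Col1a2, a fibrillar collagen, had 5.76, 8.49, 8.14 and 4.97 on SBS arrays against 8.32, 7.11 and 7.99 on sham arrays. The matrix genes Fstl1 and Dcn, the smooth muscle actin Actg2 and the vessel gene Emcn were likewise low on SBS 1 and SBS 4 and near the sham level on SBS 2 and SBS 3. Of 36 fibroblast and matrix genes 0 passed, where 2.94% of all genes changed. Their median was -0.32 and -0.40 on SBS 1 and SBS 4, against 0.19 and 0.21 on SBS 2 and SBS 3. The follicle stroma list followed this split in part, with -1.09 and -1.20 on SBS 1 and SBS 4 and -0.38 and -0.73 on SBS 2 and SBS 3, while the B cell list did not, at -1.23 and -1.20 against -0.94 and -1.29. The part of stromal content in the stromal list was not tested.

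Some enterocyte genes varied within both groups. Alpi, the alkaline phosphatase of the brush border, had 9.58, 6.95, 4.63 and 8.39 on SBS arrays against 4.81, 8.88 and 5.78 on sham arrays. Reg1a, a secreted lectin-like protein, had 11.69, 6.55, 6.07 and 10.24 on SBS arrays and 7.25, 10.44 and 6.54 on sham arrays. Both were high on SBS 1, SBS 4 and sham 2, and so was the iron exporter Slc40a1, with 8.80, 7.84 and 8.72 there and 6.33 to 6.87 on the other 4 arrays. The calcium-binding protein gene S100g was highest on the same 3 arrays, at 8.98, 9.31 and 9.20. All 4 genes averaged higher on the SBS jejunal arrays than in either ileal group, at 13.03, 13.53, 11.49 and 10.63.

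**Figure D5:**
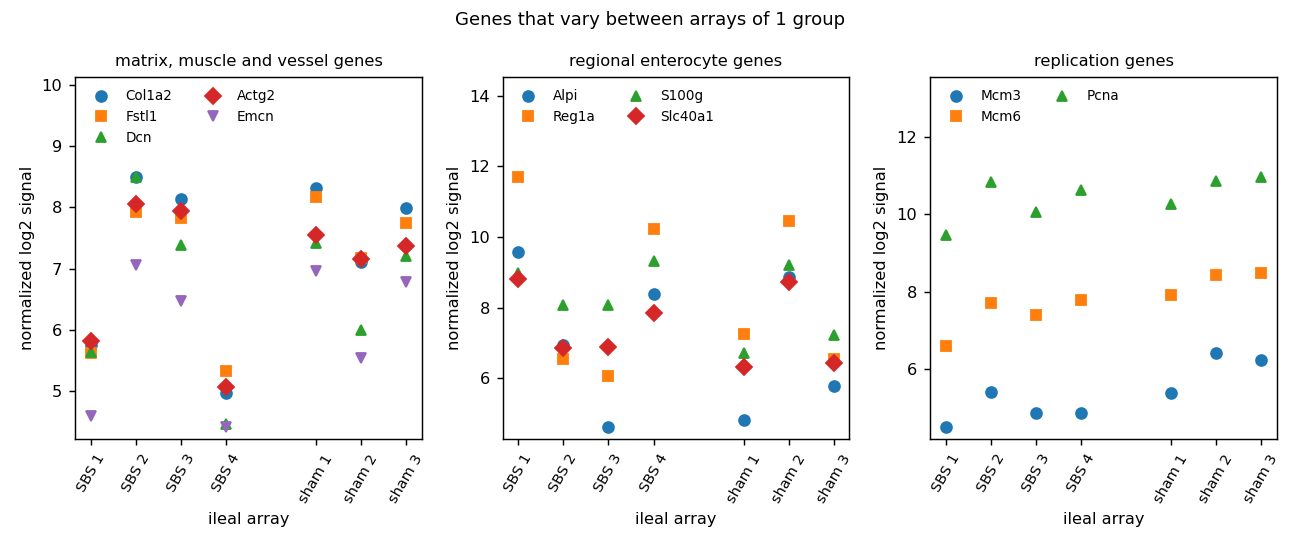
Normalized log2 signal (vertical axes) on each ileal array (horizontal axes, SBS 1 to 4 then sham 1 to 3) for matrix, muscle and vessel genes, regional enterocyte genes and replication genes. Matrix genes are low on SBS 1 and SBS 4, Alpi, Reg1a, S100g and Slc40a1 are high on SBS 1, SBS 4 and sham 2, and replication genes are lowest on SBS 1.

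Other genes that rose have varied roles. Acta1, the skeletal muscle actin, rose 42.2-fold, with 13.25, 11.06, 13.16 and 10.47 on SBS arrays against 7.51, 6.65 and 5.59 on sham arrays (adjusted p = 0.00458); of the other 4 measured skeletal muscle genes none passed. Plat, tissue plasminogen activator, rose 5.48-fold (adjusted p = 0.0241), with 6.97 on SBS 2 and 8.51 to 9.47 on the other SBS arrays, against 5.58 to 6.31 on sham arrays. F3, tissue factor, which starts coagulation, rose by 0.98 (adjusted p = 0.0347). Ripk3, a kinase of programmed necrosis, rose by 1.00 (adjusted p = 0.0258).

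The other genes that rose outside the lists are given next. Mal2, a membrane protein of apical transport, and Pvr, the nectin-like poliovirus receptor, rose by 1.12 and 1.10 (adjusted p = 0.00826 and 0.00843); Pvr had 7.95, 7.86, 7.58 and 7.56 on SBS arrays against 6.67, 6.68 and 6.55 on sham arrays. Sec22b, of vesicle fusion, Hook1, of endosomes, and Scarb2, of lysosomes, rose by 0.89, 0.85 and 0.84 (adjusted p = 0.0107, 0.0185 and 0.0424), and Plekha8, a lipid transfer protein of the Golgi, by 1.02 (adjusted p = 0.00826). Prr15 rose by 1.39 (adjusted p = 0.00826) at a level of 10.35 to 11.05 on SBS arrays. Vkorc1l1, of vitamin K reduction, Qdpr, of tetrahydrobiopterin recycling, and Mocs2, of molybdenum cofactor synthesis, rose by 1.37, 1.05 and 0.72 (adjusted p = 0.041, 0.0368 and 0.0151). Clca2, Tmem220, Fam210a and Fndc3b rose by 0.94, 0.83, 0.80 and 0.75 (adjusted p = 0.0324, 0.0482, 0.0332 and 0.0383).

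Further genes that fell were Gpx1, the cytosolic glutathione peroxidase, by 0.86 (adjusted p = 0.0437), while its relative Gpx4 was apart the other way (difference 0.61, adjusted p = 0.0977). Zfp36l1, which destabilises messenger RNA, Fkbp5, a chaperone partner induced by glucocorticoids, and RT1-N3, a class I gene of a family of near-identical copies, fell, with differences of -0.96, -1.12 and -0.77 (adjusted p = 0.0198, 0.0496 and 0.0242). Nphs1, the nephrin gene, fell by 1.05 (adjusted p = 0.0242).

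The resection effect was compared between ileum and jejunum where 1 sham jejunal array allowed it, and 13 genes differed (0.194% of those measured). Ileal and jejunal arrays share rats, and this fit has no term for the rat; by probe 17 passed, and 33 once a random block for the rat was added. The deviations of the SBS ileal and jejunal arrays of 1 rat correlated by 0.66, 0.47, 0.19 and 0.44. Gcg was the 1 gene both changed in ileum and different between regions: it was higher by 1.49 in resected ileum but averaged 6.69 on SBS jejunal arrays against 8.70 on the sham jejunal array, a difference of effects of 3.5 (adjusted p = 0.000184). With 1 sham jejunal array, a gene that did not pass is not shown to respond alike in both regions. In jejunum Ms4a1 averaged 4.41 on SBS arrays against 6.00 on the sham array and Cxcl13 4.85 against 7.84.

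Of 92 called genes named here, 17 passed in each of 22 other settings: Plb1, Clu, Npy, Gcg, Acta1, Ms4a1, Cd72, Cd79b, Icam2, Il22ra2, RT1-DOb, St3gal6, Mybl1, Plek, Dnai7, Dok3 and Pecr. For 44 of the 92, of which 37 were undetected on at least 1 ileal array, the log2 difference in the series matrix was smaller by over 1.5 times, so that the size of a change near the background rests on its correction. Bounds are set at the lowest signal of any detected probe and hold for that correction.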

How the data were processed

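Per the file headers, the authors deposited a table of average bead intensity per probe, with no normalization between arrays, and beside each a detection p-value. The deposited series matrix held log2 values; they lay within 0.0101 of the quantile normalized log2 signals without background correction, with a median of 5.86 on each array. The scanner software is not given in the sources used here. Both a Rat Quad and a RatRef-12 BeadChip appear in the labels; RatRef-12 follows their label protocol. Precision is limited by how few arrays there are.

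Here neqc of limma 3.58.1 (R 4.3.3) estimated the background from detection p-values, with normexp and an offset of 16, followed by quantile normalization and log2. The filter kept 9137 of 22517 probes, those with detection p under 0.05 on 3 or more of the 12 arrays. Of these, 6813 carried 1 symbol and stood for 6704 genes; over the whole array 8730 probes had no symbol and 0 had several. The platform's gene annotation was joined to RefSeq names through Entrez identifiers (13747 probes) or accessions (5). Each gene is its probe with the highest mean over 12 arrays; 104 genes had several. A model with 1 mean for each of 4 groups was fitted over 12 arrays (lmFit, eBayes), with two-sided tests and 8 residual degrees of freedom. A bound replaces the fold where the lower group had no array with the probe detected.

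The 61 lists and 35 symbol families, and the comparison itself, were chosen with earlier results of these data known. Named genes are called list members, up to 4 of each list by test statistic, defining members, and up to 15 called genes in each direction outside the lists; some are left to counts, and markers of region and stroma were added after their values were seen. On simulated data with 9137 probes and independent noise for each probe, log2 changes of 1 and 2 were found for 74% and 92% of 100 changed probes each. There were 6 false calls. Variation shared by the probes of an array was not simulated, so these shares may not hold for the real arrays. Same-numbered SBS and sham arrays come from different rats, by their codes. Their deviations correlated by 0.21, -0.08 and 0.03, against -0.42 to 0.41 for pairs with different numbers. Whether samples of 1 number were processed together was not tested. Alternatives were other background corrections, scalings, filters, spread models and blocks, and leaving out each array.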

Additional observations from a re-analysis of the deposited data

Results flagged for a closer look

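In 9 of 190 named genes 1 SBS array stood apart from the other 3 (gap over range above Dixon's critical value for 4 samples); chance flags about 1 gene in 20, here 9.5. SBS 2 was the array apart in 5: Apoe (ratio 0.983) and the T cell gene Faslg (0.958) and tuft cell gene Hpgds (0.909) were high there, and Car4 (0.919) and the peroxisomal reductase Decr2 (0.841) low. SBS 1 was high for Mal2 (0.875) and for the sodium-proton exchanger Slc9a3 (0.839), which differed by 0.93 between groups (adjusted p = 0.201). Fabp2 (1.000, SBS 4 low) and Fabp6 (1.000, SBS 3 high) were tied on the other 3 SBS arrays at the top of the quantile scale, where 1 step of rank gives this ratio, and are not read as a difference in expression.

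The resection effect differed between ileum and jejunum for 4 named genes, in a test that rests on 1 sham jejunal array. The difference of effects, ileum minus jejunum, was 6.45 for Cubn, the vitamin B12 receptor (adjusted p = 0.00882), 3.5 for Gcg (0.000184), -3.39 for the iron transporter Slc11a2 (0.00882) and -3.9 for Spink4 (0.00882). Cubn had 8.20, 6.38, 8.76 and 7.63 on SBS ileal arrays against 6.47, 6.72 and 5.38 on sham ileal arrays. Cubn, Slc11a2 and Spink4 were not called in ileum. Over 22 other settings their ileal differences ran from 1.16 to 2.01, from 0.04 to 0.41 and from 0.48 to 1.08. Most of the difference of effects of these genes thus lies in jejunum and rests on the 1 sham jejunal array.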

How the results depend on the processing

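Of 268 probes called in ileum, 59 were higher and 209 lower. With no filter on dim probes 170 passed (36 higher, 134 lower), without rat 36 it was 141 (25 and 116), and with array weights 929 (403 and 526). Median scaling over kept probes gave 80 higher and 139 lower, with the median of all genes at 0.16, and over all probes, a setting chosen after seeing the data, 21 higher and 212 lower with that median at -0.09 (0.04 with quantile normalization). Cyclic loess gave 36 higher. Leaving out 1 ileal array gave 23 to 319 calls, 3 to 66 higher and 20 to 253 lower: 23 without sham 2, 25 without sham 3, 125 without SBS 1 and 162 without SBS 4. The replicate numbers do not pair the rats. The ileal arrays alone gave 232 calls, 55 of them higher. With the replicate number added as a block to that fit, 290 passed, 103 of them higher. The difference of effects between regions, 17 probes, became 51 with array weights, 33 with a random block for the animal, and 8 to 28 with 1 ileal array left out. Of 92 named called genes 73 of the 90 kept did not pass without sham 2 (adjusted p up to 0.236), 72 of 90 without sham 3 (up to 0.269), 43 with no filter and 40 without SBS 1; in no setting did 1 change sign. The medians of the T cell, chemokine and matrix lists changed sign with median scaling (0.07, 0.03 and 0.02). The cause of these moves was not tested.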

Other observations

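Interferon-induced genes and cell death genes held differences that no call marks. Cxcl11, an interferon-induced chemokine, had 6.93, 7.45, 7.37 and 7.79 on SBS arrays against 6.28, 5.79 and 5.77 on sham arrays (difference 1.44, adjusted p = 0.0864). Ifi47, an interferon-induced GTPase, and Psme2, a proteasome activator subunit, were also apart, with differences of 0.99 and 0.65 (adjusted p = 0.0984 and 0.0577). Of 45 measured genes of interferon response and class I processing 8 were apart and higher (17.8%, against 11.4% of all genes). Of the 45, 3 were apart and lower (6.67%, against 8.47%), and 1 fell (2.22%, near the 2.25% of all genes). The death proteases went different ways: Casp6 was higher and Casp2 lower on every SBS array (differences 0.61 and -0.81, adjusted p = 0.0879 and 0.0786), and Dffa, the inhibitor of the apoptotic nuclease, differed by 0.59 (adjusted p = 0.0712). Areg, the growth factor amphiregulin, was detected on all 4 SBS arrays (4.79 to 6.27) and on no sham array, at least 1.85-fold higher, without passing (adjusted p = 0.121). Adm, adrenomedullin, differed by 1.12 (adjusted p = 0.182).

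Among enzymes of foreign compounds, the carboxylesterases Ces2g and Ces2j were higher on every SBS array (differences 0.47 and 0.97, adjusted p = 0.0535 and 0.0719), and the cytochrome Cyp2b15 was lower on every one, with 4.80 to 6.23 against 7.18 to 7.55 on sham arrays (difference -1.86, adjusted p = 0.0918). Of 96 lists and families 64 had 0 called genes, among them cytochromes P450, claudins, keratins, clock genes and proteasome subunits. Over all genes 2.94% changed.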
